A study of Mus musculus with 10 samples.

Results

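The 9 genes described here encode constituents of myelin and of the oligodendrocytes that make it, and their level in each library is read as a measure of oligodendrocyte RNA. They were chosen by symbol (Mbp, Mobp, Mog, Mag, Cnp, Mal, Cldn11, Ugt8a and Ermn), each matched 1 Ensembl gene identifier of the 54838 in the count files, and all 9 were among the 16806 genes that passed the expression filter. No member had a zero count in any library. The libraries came from translating ribosome affinity purification (TRAP), in which ribosomes carrying a tagged protein are precipitated together with the RNA they hold. All mice had the genotype Drd2-Cre;Eef1a1LSL.eGFPL10a/+ on C57BL/6, were male and about 10 weeks old by the study's methods, and received no treatment. Cre under the control of Drd2, the dopamine D2 receptor gene, switches on the EGFP-tagged ribosomal protein L10a, in the hippocampus chiefly in mossy cells, the excitatory neurons of the dentate hilus, and more sparsely in interneurons. The hippocampus was split along its length into a shorter dorsal and a longer ventral piece, with tissue at the place of the ventral subiculum taken out, and each of the 5 Dorsal and 5 Ventral libraries held tissue of 5 pooled mice, and replicates are therefore pools of animals.

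Oligodendrocytes wrap axons of the central nervous system in many layers of membrane, which compact into myelin and speed the conduction of impulses. Compact myelin is held together by basic proteins and proteolipids, sealed by claudin strands and rich in galactosylceramide, while adhesion molecules lie on its surfaces and cytoskeletal proteins in its cytoplasmic channels. Precursor cells of the hippocampus continue to form oligodendrocytes in adult mice, and the transcription factors SOX10 and MYRF drive the myelin genes in cells that mature. None of these cells is a neuron, and Drd2-Cre was chosen to tag neurons. Whether the myelin RNA was held by tagged ribosomes or carried along from other cells was not tested.

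Promoter windows were read for short words before the starts of the genes. RefSeq gave a window for 8 members in build GRCm38.p6 and the 250 bases before each start were searched on both strands for the letters CTGGCAC or CTGGTAC, the core bound by MYRF, and for ACAAAG or ACAATG, the core bound by SOX factors, with words chosen after the windows had been read. A MYRF word stood in the windows of 3 of the 8 members (Mog, Mag and Cnp) and in 5.93% of 32851 promoter windows of the same length. SOX words stood in 4 of the 8 members (Mobp, Mag, Cnp and Ermn) and in 25.2% of all windows. Because the words were chosen after reading, these shares show how common the words are and do not test the members. The windows of Mal, Cldn11 and Ugt8a held neither word, and no matches overlapped each other. The windows of the 3 members with a MYRF word and of Mobp, which held 6 SOX words, follow as printed on the gene's strand, with matched words of either strand in capitals and cut at the GENCODE start of the gene. They lie at chr9:120149492-120149706 (plus strand), chr17:37023399-37023648 (minus), chr7:30914874-30915113 (minus) and chr11:100574689-100574903 (plus). A match is a description of these letters and not a binding site.
Mobp: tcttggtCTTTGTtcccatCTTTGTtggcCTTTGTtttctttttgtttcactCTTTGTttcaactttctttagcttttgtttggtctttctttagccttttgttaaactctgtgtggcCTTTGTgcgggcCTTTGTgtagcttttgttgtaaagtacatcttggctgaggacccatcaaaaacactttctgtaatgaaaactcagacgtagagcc
Mog: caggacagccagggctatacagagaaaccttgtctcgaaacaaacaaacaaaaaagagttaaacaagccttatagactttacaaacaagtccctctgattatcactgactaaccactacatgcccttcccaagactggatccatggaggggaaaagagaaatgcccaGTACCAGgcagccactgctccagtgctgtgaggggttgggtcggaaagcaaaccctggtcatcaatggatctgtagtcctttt
Mag: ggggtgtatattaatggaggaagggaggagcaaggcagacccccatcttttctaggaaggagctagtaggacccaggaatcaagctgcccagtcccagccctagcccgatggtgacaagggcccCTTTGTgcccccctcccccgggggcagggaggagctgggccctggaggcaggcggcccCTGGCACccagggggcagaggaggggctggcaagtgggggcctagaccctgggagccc
Cnp: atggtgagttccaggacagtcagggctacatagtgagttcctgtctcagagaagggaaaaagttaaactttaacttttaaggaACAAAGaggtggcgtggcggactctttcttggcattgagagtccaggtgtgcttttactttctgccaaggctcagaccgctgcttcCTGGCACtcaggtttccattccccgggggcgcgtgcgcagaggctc

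Counts on genes ranged from 11138676 to 20594364 per library, and 3 counts, the smallest level taken as shown, corresponded to 0.146 to 0.269 CPM (counts scaled to library size). This floor and the mitochondrial sums were scaled to total gene counts alone, and the CPM of genes and lists also by TMM. This floor covers counting error only, because the reads were amplified and carry no identifiers of single molecules. The lowest count of any member was 34 (Mag, ventral replicate 2). Read pairs outside annotated genes made up 21.8% to 33.9% of a dorsal and 11.6% to 19.3% of a ventral library, and genes of the mitochondrial genome summed to between 18717 and 20292 CPM (dorsal) or between 3301 and 7440 CPM (ventral), with no overlap for either measure. Their part in the results on myelin genes was not tested. Of 9 mossy cell markers 8 were tested, and they moved both ways, with 3 called dorsal-enriched (Gria2, Gria3 and Cyp26b1) and 2 ventral-enriched (Calb2 and Satb1), while Csf2rb2 was below the filter. They summed to between 1736 and 2006 CPM (dorsal) or 1804 and 2113 CPM (ventral), with Gria2 making up 61.7% of the dorsal and 33.3% of the ventral sum.

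Of the 9 myelin genes, 5 were called dorsal-enriched (Mbp, Mobp, Mal, Cldn11 and Ermn), 0 were called ventral-enriched and 4 (Mog, Mag, Cnp and Ugt8a) did not pass. A call needed an adjusted p below 0.05 in edgeR's quasi-likelihood test over all tested genes together with a ratio of the group means (CPM + 1) beyond 0.58 on the log2 scale. Over all tested genes, 15.7% carried a dorsal and 9.85% a ventral call. At an unadjusted p below 0.05, 7 members were higher and 0 lower in dorsal libraries. The share of all genes at that limit was not counted, so these 2 counts have no background to be read against. At an adjusted p below 0.05 without the threshold on the ratio, 5 members were higher and 0 lower, against 3191 and 2454 of all 16806 tested genes. DESeq2 called 6 members dorsal-enriched and 0 ventral-enriched, against 2559 and 1458 of all 16806 tested genes. The median log2 fold change, dorsal over ventral, was 0.65 over the 9 members and -0.0044 over all tested genes, of which 49.6% lay above 0. Every dorsal library exceeded every ventral library for 3 members (Mobp, Mal and Ermn), as for 9.81% of all tested genes.

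**Figure D1:**
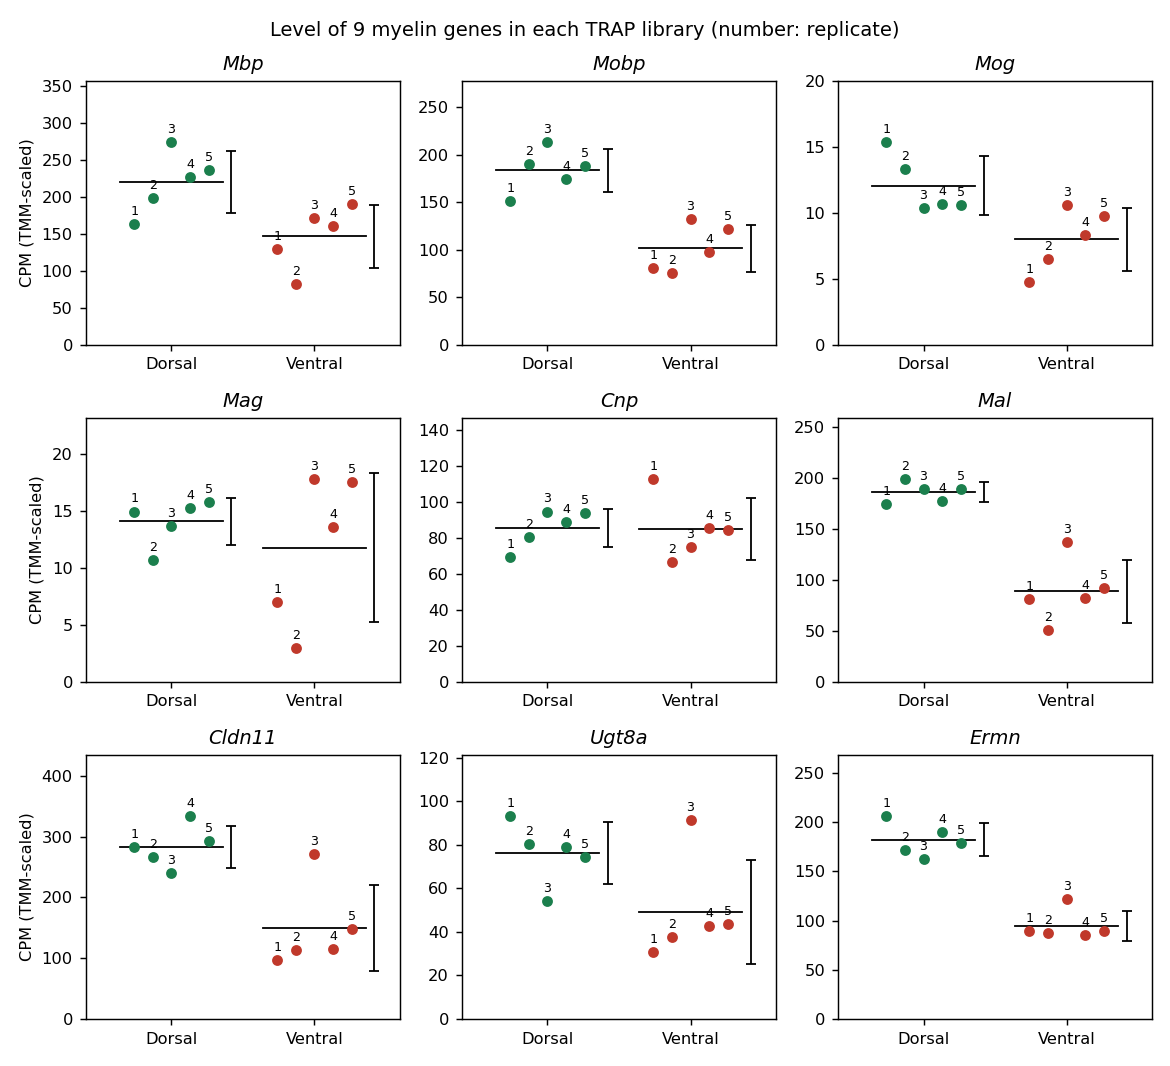
Level of each myelin gene in every library, in CPM on a linear axis from 0, with the replicate number beside each point, the group mean as a line and the SD as a bar (n = 5 per group). The dorsal and ventral points of Mobp, Mal and Ermn do not overlap, whereas those of Cnp cover much the same range, 69.5 to 94.6 CPM (dorsal) and 66.7 to 113 CPM (ventral).

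Summed over the 9 genes, the level was 1171, 1210, 1253, 1295 and 1279 CPM across dorsal replicates 1 to 5, compared with 631, 523, 1028, 691 and 796 CPM across ventral replicates 1 to 5. All dorsal sums lay above all ventral sums. The sums averaged 1242 ± 50.8 CPM for dorsal against 734 ± 192 CPM for ventral pools (SD, n = 5), a 1.69-fold ratio (0.76 on the log2 scale), and no test was run on this sum. In these bulk precipitates, more oligodendrocytes, more myelin RNA per oligodendrocyte and more RNA carried along from untagged cells cannot be told apart.

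Mobp, Mal, Cldn11 and Mbp encode structural proteins of compact myelin. Mobp (ENSMUSG00000032517, chr9:120149707-120181484), the myelin-associated oligodendrocyte basic protein, stood at 151, 190, 213, 174 and 188 CPM across dorsal replicates 1 to 5, compared with 80.6, 75.5, 132, 97.9 and 122 CPM across ventral replicates 1 to 5. Its groups did not overlap, and ventral replicates 1 and 2 were lowest. The log2 fold change of Mobp was 0.85 (SE 0.15, adjusted p = 0.00127), and it was called in every alternative analysis. Mal (ENSMUSG00000027375, chr2:127633226-127656695) encodes a small proteolipid of myelin membrane. Its levels were 175, 199, 189, 177 and 189 CPM across dorsal replicates 1 to 5, compared with 81.2, 51.1, 137, 82.7 and 92.4 CPM across ventral replicates 1 to 5. The dorsal libraries lay close together and all above the ventral ones, of which replicate 3 came nearest. Mal had the largest rise of the 9, with a log2 fold change of 1.07 (SE 0.18, adjusted p = 0.000889), and was called in every alternative analysis.

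Cldn11 (ENSMUSG00000037625, chr3:31149920-31164324), the claudin of the tight junction strands in central myelin, had 283, 267, 240, 334 and 292 CPM across dorsal replicates 1 to 5. In ventral replicates 1 to 5 it had 96.5, 114, 272, 115 and 148 CPM. Ventral replicate 3 alone reached the dorsal range. Cldn11 rose by a log2 fold change of 0.94 (SE 0.23, adjusted p = 0.00697) in dorsal libraries and by 1.25 (adjusted p = 7.55e-05) without ventral replicate 3. Mbp (ENSMUSG00000041607, chromosome 18) encodes myelin basic protein, which joins the cytoplasmic faces of the membrane. It stood at 163, 198, 274, 226 and 236 CPM across dorsal replicates 1 to 5, compared with 129, 81.6, 172, 160 and 190 CPM across ventral replicates 1 to 5. The groups overlapped, since dorsal replicate 1 was below ventral replicates 3 and 5. Its log2 fold change was 0.58 (SE 0.19, adjusted p = 0.0324), which lies on the threshold. The call of Mbp was lost without dorsal replicate 3, 4 or 5 and without ventral replicate 1 or 2, where the log2 fold change was 0.43 to 0.57.

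Mog and Mag encode immunoglobulin-family adhesion molecules on the outer and the inner, axon-facing side of myelin, and neither passed. Mog (ENSMUSG00000076439, chr17:37010743-37023398), myelin oligodendrocyte glycoprotein, stood at 15.4, 13.4, 10.4, 10.7 and 10.6 CPM across dorsal replicates 1 to 5, compared with 4.76, 6.50, 10.6, 8.34 and 9.80 CPM across ventral replicates 1 to 5. Dorsal replicates 1 and 2 lay above all ventral libraries, and dorsal replicates 3 and 5 lay just below ventral replicate 3. The log2 fold change of Mog was 0.58 (SE 0.23, adjusted p = 0.0685), and 0.67 (adjusted p = 0.047) without ventral replicate 3, when it was called. Mag (ENSMUSG00000036634, chr7:30899176-30914873), myelin-associated glycoprotein, had 14.9, 10.7, 13.7, 15.2 and 15.8 CPM in dorsal replicates 1 to 5. Its ventral replicates 1 to 5 had 7.03, 2.99, 17.8, 13.6 and 17.5 CPM. Ventral replicates 1 and 2 were far below the dorsal range and replicates 3 and 5 above it. The log2 fold change of Mag, 0.21 (SE 0.32, adjusted p = 0.637), was smaller than its error, and Mag was called in 0 of 24 alternative analyses.

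Cnp and Ermn encode proteins of the cytoplasmic, uncompacted parts of myelin. Cnp (ENSMUSG00000006782, chr11:100574904-100591729), the cyclic nucleotide phosphodiesterase that keeps cytoplasmic channels open, stood at 69.5, 80.2, 94.6, 88.8 and 93.7 CPM across dorsal replicates 1 to 5, compared with 113, 66.7, 74.8, 85.6 and 84.1 CPM across ventral replicates 1 to 5. The groups covered nearly the same range, with the highest and the lowest value both ventral. Its log2 fold change was 0.00 (SE 0.14, adjusted p = 0.988), and its sign turned in 6 of 24 alternative analyses. Of its exonic length, 4.23% is shared with Dnajc7 on the other strand. Ermn (ENSMUSG00000026830, chr2:58045113-58052864) encodes ermin, an actin-binding protein of mature oligodendrocytes. It had 206, 172, 163, 190 and 179 CPM across dorsal replicates 1 to 5, compared with 89.1, 87.1, 121, 85.3 and 89.0 CPM across ventral replicates 1 to 5. The groups lay wholly apart, and ventral replicate 3 stood above the other four ventral libraries, which were almost equal. Ermn had a log2 fold change of 0.95 (SE 0.12, adjusted p = 0.000113), the smallest p among the 9, but with a correction for GC content and gene length its log2 fold change turned to -0.25 (adjusted p = 0.194). It shares 6.52% of its exonic length with Galnt5 on the other strand.

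Ugt8a (ENSMUSG00000032854, chr3:125865271-125938619) encodes the galactosyltransferase that makes galactosylceramide, the characteristic lipid of myelin. Its levels were 93.3, 80.5, 54.4, 79.2 and 74.5 CPM across dorsal replicates 1 to 5, compared with 30.9, 37.7, 91.4, 42.5 and 43.7 CPM across ventral replicates 1 to 5. The groups would not overlap but for ventral replicate 3, which lay among the highest dorsal values. The log2 fold change was 0.65 (SE 0.24, adjusted p = 0.052), just short of a call. Without ventral replicate 3 it was 0.97 (adjusted p = 0.00109), and with the GC and length correction 0.15 (adjusted p = 0.628). Ugt8a was called in 11 of 24 alternative analyses.

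GC content moved with the difference between the groups over all genes and touches Ermn and Ugt8a most. Their transcripts have GC contents of 38.0% and 40.9%, against 50.8% to 55.7% for the other 7 members. Tested genes with a GC content below 40% had a median log2 fold change of 0.77 and 41.9% of the 1025 were called dorsal-enriched, compared with a median of 0.09 from 40% to 45% and of -0.13 at 55% and above. The correction from all tested genes brought the median of genes below 40% to -0.40 and that of all genes to -0.14, so that relative to its own median Ermn, at -0.25, lay 0.10 lower. It also turned the split of all calls from 2636 dorsal and 1655 ventral to 2026 and 2675. A second correction, with the trend taken from genes of mean CPM 5 or more alone and added after the first was seen, gave a median of 0.38 below 40% and a log2 fold change of 0.58 for Ermn (SE 0.099, adjusted p = 0.000973), just under the threshold on the ratio, and of 0.60 for Ugt8a (adjusted p = 0.0498), which was likewise not called because its ratio of group means fell short of the threshold. Mobp, Mal and Cldn11 were called with both corrections, at log2 fold changes of 0.80 to 1.20. Mbp (0.63) passed the first only and Mog (0.81, adjusted p = 0.0152) the second only.

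**Figure D2:**
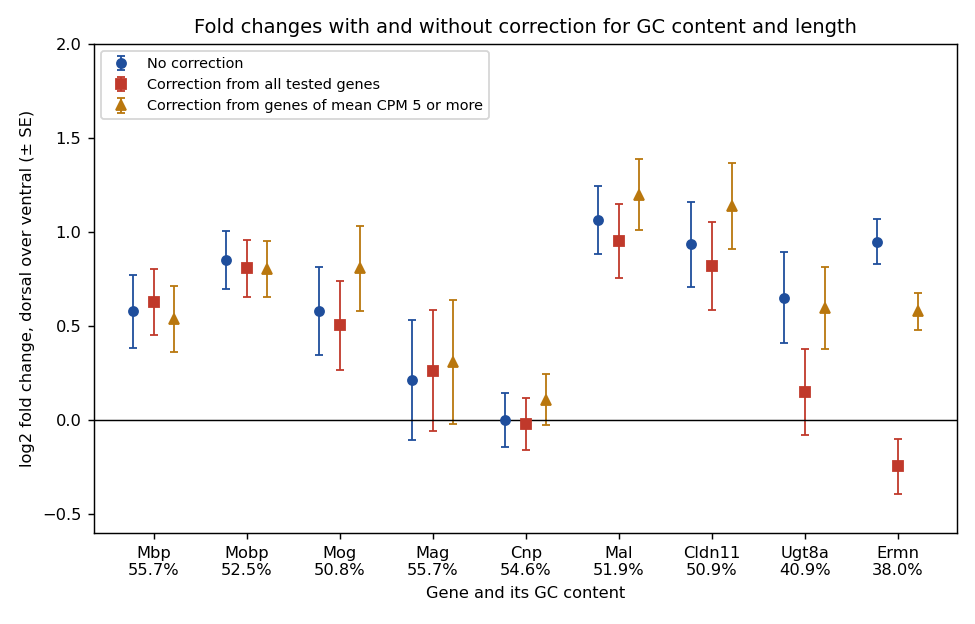
log2 fold change, dorsal over ventral, of each myelin gene with its SE, without correction (circles), with the correction from all tested genes (squares) and with that from genes of mean CPM 5 or more (triangles), each gene given with its GC content. Ermn moves from 0.95 to -0.25 and 0.58, whereas the 3 values of Mobp lie between 0.80 and 0.85.

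Levels were also set per kilobase of exonic sequence, the merged length of all annotated exons of a gene. This length can exceed that of the transcripts present, and GC content was not corrected here, so the order of the genes is approximate. Cldn11 stood first in both groups, at 152 ± 18.4 CPM per kilobase among dorsal and 79.7 ± 38.0 among ventral libraries (SD, n = 5). In dorsal libraries Mal (66.9) and Ermn (50.1) followed, each apart from the next gene in every library. Mobp (26.8), Mbp (25.9), Cnp (23.5) and Ugt8a (16.8) came next, with ranges that overlapped from neighbour to neighbour. Mog (7.09) and Mag (3.45) were lowest and separate from each other. In ventral libraries the genes from Mal (32.0) through Ermn (26.0), Cnp (23.3), Mbp (17.3) and Mobp (14.8) to Ugt8a (10.9) formed an unbroken series of overlapping neighbours, and Mog (4.70) and Mag (2.89) overlapped as well. Cnp, below Mobp and Mbp in dorsal libraries, thus stood 2 places higher in ventral ones.

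The ratio of a member to Cnp in the same library does not depend on library scaling. Cnp was taken as the reference after its values had been seen, as the member with a log2 fold change nearest 0, so the ratios restate the members' own differences and were not tested. The Mal to Cnp ratio averaged 2.20 ± 0.270 over dorsal and 1.08 ± 0.449 over ventral libraries (SD, n = 5), and the Mobp to Cnp ratio 2.15 ± 0.169 and 1.24 ± 0.392. The group means of the log2 ratio differed, dorsal minus ventral, by 0.49 (Mag) to 1.11 (Mal) over the 8 other members. This is not the log2 of the averaged ratios, which for Mag were 0.167 (dorsal) and 0.142 (ventral). Mobp, Mbp and Mal lie near Cnp in GC content (51.9% to 55.7% against 54.6%), whereas Ermn does not.

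Libraries differed less within the dorsal than within the ventral group. After subtraction of each group's mean, the mean log2 deviation over the 9 members ran from -0.03 to 0.04 in dorsal libraries and was -0.25, -0.50, 0.53, 0.02 and 0.21 in ventral replicates 1 to 5. Ventral replicate 3 had the highest ventral level of 7 members, all but Mbp and Cnp. Ventral replicate 2 had the lowest level of 5 (Mbp, Mobp, Mag, Cnp and Mal) and ventral replicate 1 of 3 (Mog, Cldn11 and Ugt8a). Ventral replicate 3 also had the largest ventral share of read pairs outside genes (19.3%) and of mitochondrial genome CPM (7440), and ventral replicate 2 the smallest mitochondrial level (3301), and the part of these in the myelin levels was not tested. Among dorsal libraries the members went opposite ways in replicates 1 and 3. Mbp, Mobp, Cnp and Mal were lowest in dorsal replicate 1, and Mog, Cldn11, Ugt8a and Ermn were lowest in dorsal replicate 3. The first 4 genes have GC contents of 51.9% to 55.7% and the second 4 of 38.0% to 50.9%. Mag, also at 55.7%, is in neither set, being lowest in dorsal replicate 2 and 0.09 above its dorsal mean (log2) in dorsal replicate 1. Some of these shifts were small, such as -0.09 for Mal in dorsal replicate 1. The part of GC content in them was not tested.

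**Figure D3:**
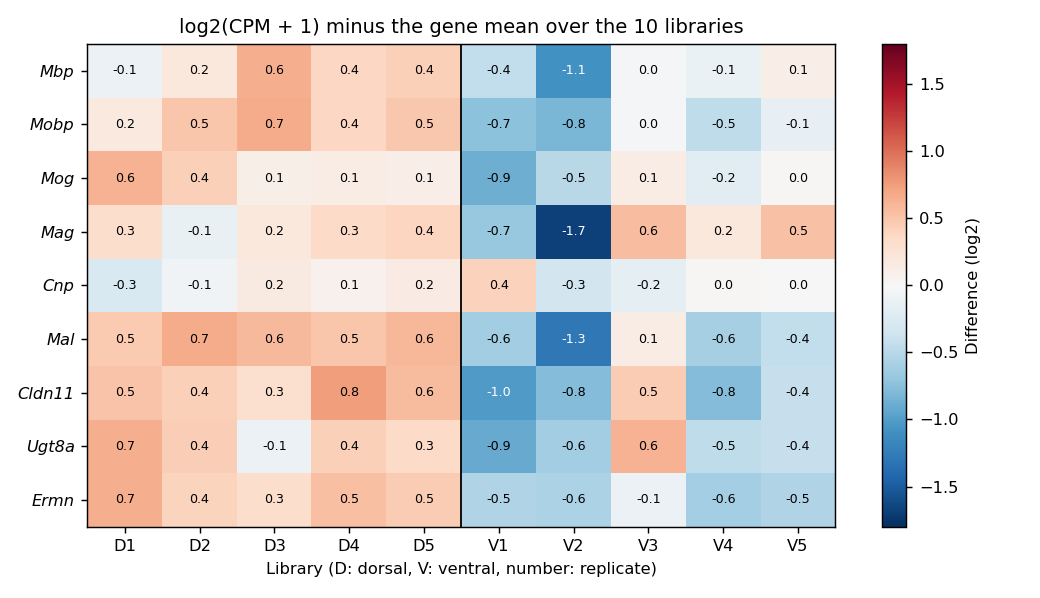
Difference of log2(CPM + 1) from the gene's mean over the 10 libraries, for each myelin gene (rows) and library (columns, dorsal D1 to D5 and ventral V1 to V5), with red above and blue below the mean. Most dorsal cells are red and most ventral cells blue, V3 is the palest or reddest ventral column for most genes, and the Cnp row holds small differences, with V1 its reddest cell.

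Other oligodendrocyte genes were read from 4 further lists. Of their 36 genes, 35 were tested, 12 had a dorsal and 0 a ventral call, 31 had a log2 fold change above 0 and the median was 0.57. Of the 12, 8 were among the 14 membrane genes, whose median was 1.16. At an unadjusted p below 0.05, 1 gene of the 4 lists was lower in dorsal libraries (Sox10), and DESeq2 also called 12 and 0.

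The membrane genes include junction proteins, tetraspanins and receptors. Gjc3, a connexin of gap junctions, rose by a log2 fold change of 1.39. Cd9, a tetraspanin, had the largest log2 fold change of the listed oligodendrocyte genes, 2.75 (SE 0.27, adjusted p = 1.99e-05). It stood at 24.2 to 41.8 CPM (dorsal) against 3.71 to 8.70 CPM (ventral), and 10.7% of its exonic length is shared with Gm26728. Tmem88b (1.17) and Lpar1 (1.67), a receptor for lysophosphatidic acid, were called as well, as was Pllp (1.63), of which 54.2% of the exonic length is shared with Gm45767. Anln (0.67, adjusted p = 0.0396) was called too, but not with either GC and length correction (0.44 and 0.57) nor without dorsal replicate 1, 3, 4 or 5 or ventral replicate 1, 2 or 4 (0.49 to 0.70). Opalin, a membrane protein of mature oligodendrocytes, ranged from 12.4 to 15.8 CPM (dorsal) and more widely, like Mag, from 4.92 to 22.1 CPM (ventral), with a log2 fold change of 0.34 (adjusted p = 0.383).

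Of 8 genes of myelin lipid and oligodendrocyte metabolism, only Aspa, which splits N-acetylaspartate, was called, with a log2 fold change of 0.98 (SE 0.21, adjusted p = 0.00385) that fell to 0.39 (adjusted p = 0.187) with the GC and length correction from all genes. The enzymes that act before and after Ugt8a in galactolipid synthesis gave log2 fold changes of 0.49 for Fa2h (adjusted p = 0.218) and 0.03 for Gal3st1 (adjusted p = 0.966). Among transcription factors, Myrf was called at 0.85 (SE 0.23, adjusted p = 0.0128), with 15.5 to 24.9 CPM (dorsal) against 6.76 to 19.1 CPM (ventral). Sox10 pointed the other way, at -0.81 (SE 0.32, adjusted p = 0.0623), with 2.07 to 5.25 CPM (dorsal) against 4.26 to 9.78 CPM (ventral), and was called ventral-enriched with the GC and length correction from all genes (adjusted p = 0.0442), under the replicate block, and without ventral replicate 1 or 2. Olig1 (0.66), Olig2 (0.46) and Nkx2-2 (0.13) did not pass, and Nkx6-2 was below the filter. Of 8 genes of precursors and new oligodendrocytes, Neu4 (1.31) and Vcan (0.92) were called, Vcan not with the GC and length correction from all genes (0.63, adjusted p = 0.0527). Pdgfra, the growth factor receptor that defines precursors, had a log2 fold change of -0.43 (SE 0.28, adjusted p = 0.241) and Cspg4 of 0.04.

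**Figure D4:**
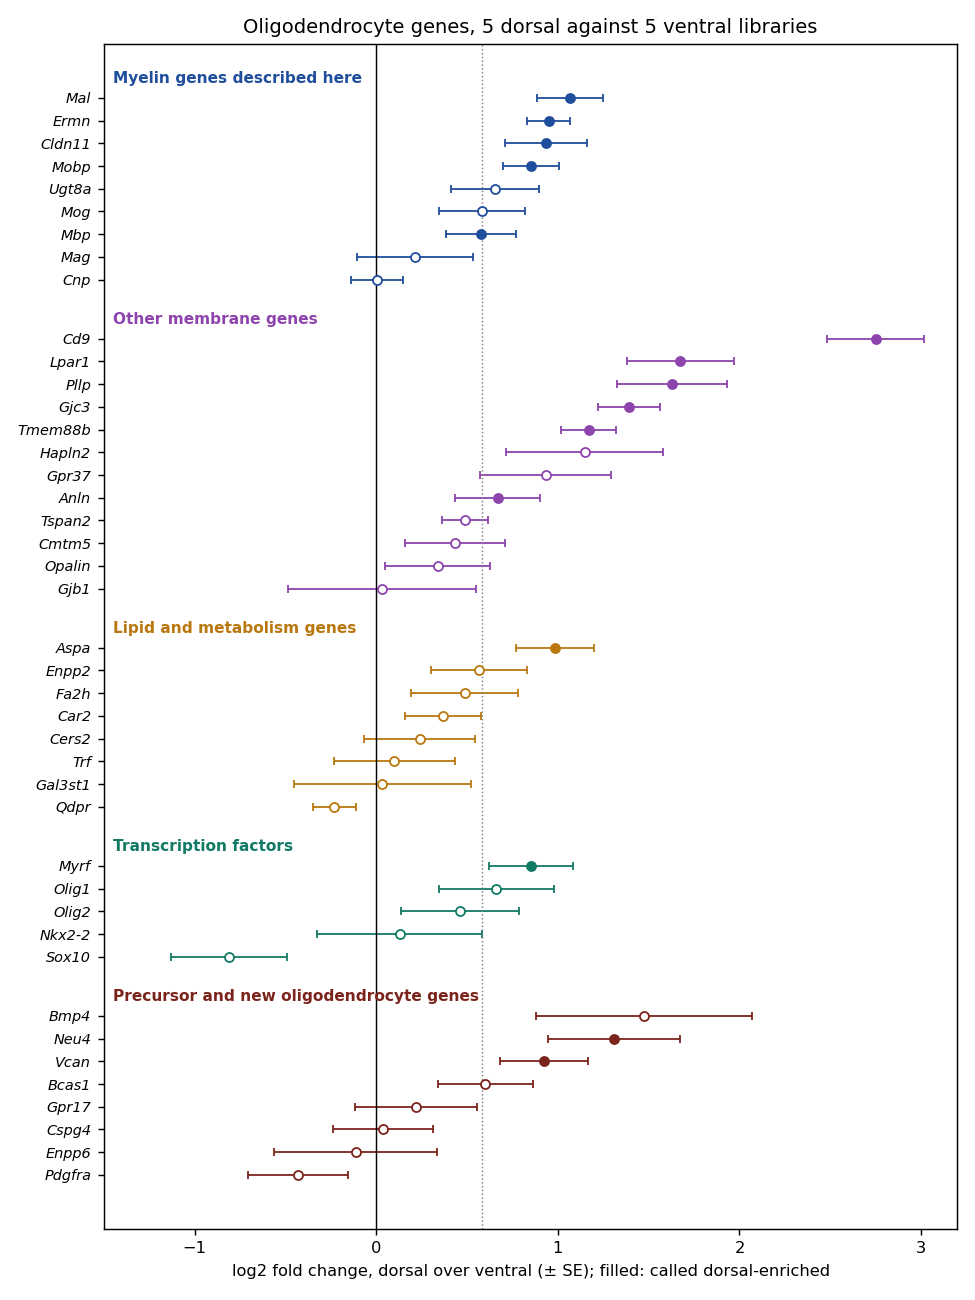
log2 fold change, dorsal over ventral, with its SE for the 9 myelin genes and 33 of the 35 tested genes of 4 other oligodendrocyte lists, sorted within each list, filled where called dorsal-enriched, with a dotted line at 0.58. Of the myelin genes 5 are filled and of the membrane genes plotted 6 of 12, while Sox10, Pdgfra, Qdpr and Enpp6 lie below 0.

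Markers of other cell types moved in both directions beside the myelin genes. Of 10 astrocyte markers 5 carried a dorsal and 1 a ventral call, and they summed to between 2000 and 2282 CPM (dorsal) or 867 and 1471 CPM (ventral). Slc1a2, a glutamate transporter, made up 82.1% of the dorsal and 70.4% of the ventral sum. The other 9 summed to 340 to 427 CPM (dorsal) and 270 to 445 CPM (ventral), a 1.06-fold ratio of means. Of these 9, Gfap, Aqp4, Slc1a3 and Gjb6 were called dorsal-enriched (log2 fold changes of 0.65 to 1.48) and Aldh1l1 ventral-enriched (-1.7). Aldoc, not called, averaged 133 CPM (dorsal) and 195 CPM (ventral). The median log2 fold change of the 10 was 0.61. Microglia markers (2 of 10 called dorsal, 0 ventral) summed to 31.4 to 48.2 CPM and 21.7 to 48.3 CPM, and choroid plexus markers (2 of 5 dorsal) to 126 to 991 CPM and 188 to 430 CPM, both overlapping. Of the choroid plexus sum Ttr, not called, made up 86.0% (dorsal) and 90.3% (ventral). The other 4 summed to 28.6 to 112 CPM (dorsal) and 26.6 to 35.5 CPM (ventral), a 2.24-fold ratio of means. All 5 were higher in dorsal libraries, with a median log2 fold change of 0.98. Endothelial markers gave 0 calls in edgeR and 0 in DESeq2 (at an unadjusted p below 0.05, 1 higher and 2 lower) and summed to between 25.6 and 59.5 CPM (dorsal) or 21.4 and 74.1 CPM (ventral). Of 6 general neuron markers 2 were called ventral-enriched (Tubb3 and Nefl) and 0 dorsal-enriched, and Rbfox3 (log2 fold change -0.000076) and Syt1 (-0.10) were nearly equal. Their sum was 14520 to 18770 CPM (dorsal) and 20050 to 23430 CPM (ventral), of which Snap25, not called, made up 84.9% and 84.6%. Interneuron markers (2 of 6 ventral) summed to 3115 to 4230 and 3752 to 4992 CPM. Gad2, not called, made up 78.5% of the dorsal and 73.3% of the ventral interneuron sum. The other 5 summed to 730 to 821 CPM (dorsal) and 1020 to 1390 CPM (ventral), without overlap. Of the 3 Schwann cell markers only Pmp22 passed the filter and it was not called. The part of these other cell types in the myelin levels was not tested.

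**Figure D5:**
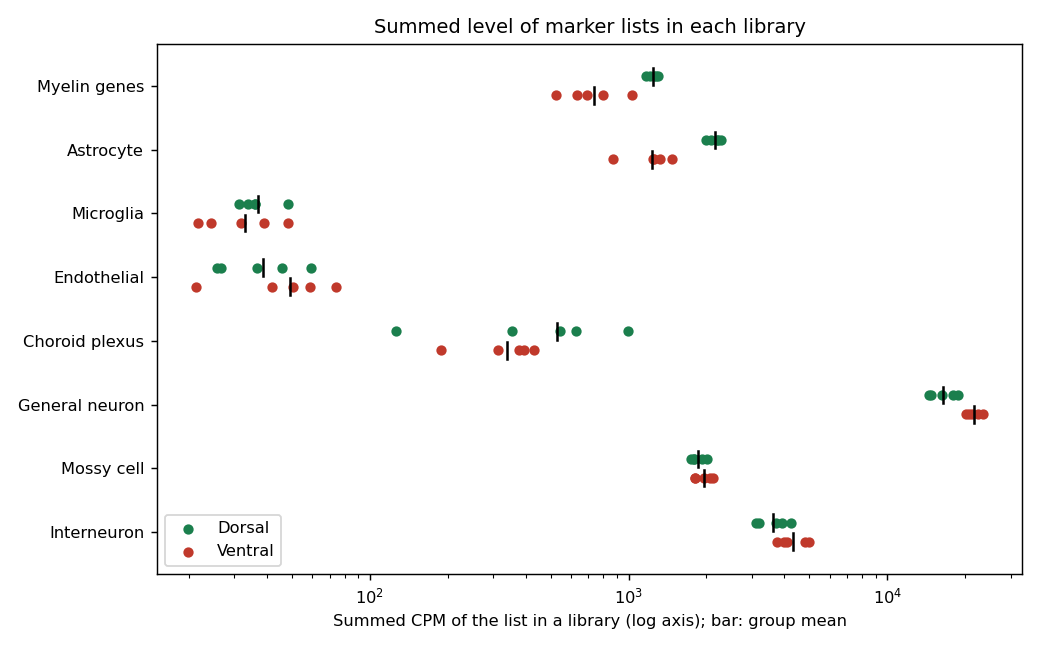
Summed CPM of each marker list in every library on a log axis, dorsal in green above ventral in red, with the group mean as a bar. The sums of myelin genes and of astrocyte markers, the second mostly Slc1a2, lie higher in all dorsal libraries, the sum of general neuron markers, mostly Snap25, lies lower, and the remaining sums overlap.

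Genes whose level varied most like the myelin genes were found by correlating group-centred log2 levels over the 10 libraries with the mean of the 9 members, a pattern set mainly by ventral replicates 2 and 3, among 10593 genes of mean CPM 5 or more. The 10 highest were Fam126a (r = 0.99), Itga9, Map3k4, Opalin (0.983), Aldh1a1, Ift80, Herc1, Usp38, Csgalnact1 and Ibtk (0.967). Opalin alone of these belongs to an oligodendrocyte list, and Itga9 was called ventral-enriched. Of 25 oligodendrocyte list genes ranked, 1 stood in the first 100 and 7 in the first 1000. Cd9, which had the largest change between the groups, stood at rank 7070 (r = -0.27). Each of the 9 members was set against the mean of the other members, itself left out. That correlation ran from 0.599 (Ermn) to 0.91 (Mal), except for Cnp at -0.12. The libraries share depth and amplification differences, and no p is attached to these values.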

How the data were processed

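Ribosome-bound RNA of 5 Dorsal and 5 Ventral hippocampal libraries was measured by RNA-seq. The authors amplified the RNA, sequenced 50 bp paired ends, aligned reads to GRCm38 with STAR 2.5.2b and took counts of each Ensembl gene with HTSeq 0.7.2, and the deposited values are whole-number counts without normalization. The annotation release and strand setting are not given in the sources used here, so genes overlapping on either strand are uncertain. Groups and replicate numbers came from the sample labels.

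The comparison used edgeR 4.0.16 under R 4.3.3, on genes that exceeded 1 CPM in 2 or more libraries, with TMM, the quasi-likelihood test and Benjamini-Hochberg adjustment over all 16806 tested genes. The SE was taken as the absolute log2 fold change over the root of F. P-values measure the spread between pools. Symbols, positions, length and GC content came from GENCODE M21, which matched 54723 of 54838 identifiers, and 16795 tested genes had GC content and length. Promoters came from RefSeq, whose table gave none for Mbp. The tests were tested on simulated data. No pair of libraries was a duplicate (chi-square per degree of freedom 4.36 to 45.1).

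The members, gene lists and tests were chosen with earlier results of these data known. The genes named are the 9 members, genes of the 4 other oligodendrocyte lists the 10 genes most alike and, chosen after their values were seen, single genes of the marker lists. Some genes of the lists are counted but not reported here by name. Promoter words, the Cnp ratios and the second GC correction were chosen after the values or sequences were seen. Alternatives were other scalings, filters, DESeq2 1.42.0, edgeR's likelihood-ratio test and version 3 dispersions, other thresholds, the replicate number as a block, corrections for GC content and length (mgcv 1.9.3), mitochondrial or noncoding genes left out, and each library left out in turn.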

Additional observations from a re-analysis of the deposited data

Results flagged for a closer look

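Dixon's test was applied to 20 groups of 5 libraries, each member and the summed level in dorsal and in ventral libraries, and 2 groups held a value that stood apart, where chance alone gives about 1 in 20. Both are ventral replicate 3. Ugt8a stood there at 91.4 CPM, with a gap to the next ventral library of 0.789 of the group's range, and Ermn at 121 CPM, with a gap of 0.895 of the range. The critical value for 5 libraries is 0.71.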

How the results depend on the processing

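The number of members called ranged from 4 to 7 over 27 alternatives, all of them dorsal-enriched, and it was 7 only without ventral replicate 3, when Mog and Ugt8a joined. Mobp, Mal and Cldn11 were called in every alternative. The sign of the log2 fold change turned only for Cnp and Ermn. With the GC and length correction Cnp was -0.020 and Ermn -0.245, but the median of all genes also fell below 0. Relative to that median, Cnp lay 0.125 higher and Ermn 0.10 lower. With the replicate block and that correction together Ermn was -0.25, and Cnp ranged from -0.067 to 0.13 when 1 library was left out (5 of 10 below 0). Mbp lost its call with the threshold set on edgeR's fold change, without a filter, at an adjusted p below 0.01 and with the second GC correction. Of the 35 other oligodendrocyte genes, 8 to 15 were called dorsal-enriched and 0 or 1 (Sox10) ventral-enriched. Over all genes 4291 were called, 2395 at an adjusted p below 0.01 and 3382 to 4482 with 1 library left out. The log2 ratio of the summed level was 0.65 to 0.81 over 8 alternatives and 0.66 to 0.91 with 1 library left out.

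By the study's methods each hippocampus was divided into both parts before pooling, so a dorsal and a ventral pool may hold the same mice. Which pools share mice is not stated, and the main test took the libraries as unpaired. Same-numbered libraries had correlations of -0.03 to 0.07 (mean 0.016, against -0.0021 for different numbers). These values concern the replicate numbers only and cannot show whether pools shared mice. The replicate block gave 5 members called, as without it, and 4328 genes in all. Counts were lowest among the members for Mag (34 to 371) and Mog (74 to 208), and low for transcription factors such as Sox10 (22 to 188). The part of depth in their results was not tested. Why these results moved was not tested.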

Other observations

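Some genes close to the myelin pattern lie outside the oligodendrocyte lists and differ in direction between the groups. Fam126a, which encodes hyccin, a protein whose loss in people gives hypomyelination, averaged 23.8 ± 0.729 CPM over dorsal and 16.3 ± 5.84 CPM over ventral libraries (SD, n = 5), with a log2 fold change of 0.55 (adjusted p = 0.0512). Aldh1a1, a retinaldehyde dehydrogenase, had 50.1 ± 1.47 and 27.4 ± 10.2 CPM and was called dorsal-enriched at 0.87 (adjusted p = 0.00453). Itga9, an integrin subunit, was called ventral-enriched at -1.77 (adjusted p = 0.0459), at 2.73 ± 0.501 CPM (dorsal) and 9.40 ± 9.35 CPM (ventral).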
